A study of Mus musculus with 7 samples.

Results

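The cytochrome P450 family 4 (Cyp4) genes of the mouse liver were followed in livers with and without Rbpj. The 10 genes described are Cyp4a10, Cyp4a12a, Cyp4a12b, Cyp4a14, Cyp4a31, Cyp4a32, Cyp4b1, Cyp4f14, Cyp4f15 and Cyp4v3. They were chosen by name, as the genes to which the array's design assigns a probe under these symbols, and they hold 14 of the 55681 probes and 10 of the 35715 gene names on the array. Total RNA of whole liver was hybridised with 1 dye to whole-genome oligonucleotide arrays, 1 array per animal, from mice of the C57BL/6J strain at the age of 4 weeks. The Rbpj +/+ group consisted of 4 AlfpCre- Rbpj flox/flox mice and the Rbpj -/- group of 3 AlfpCre+ Rbpj flox/flox mice, so that both groups carried the floxed allele, no animal was treated, and only the second group carried Cre, under a promoter that is active in the embryonic liver. The livers of the Rbpj -/- mice are labelled as cholestatic, and the sex of the animals is not given in the labels.

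Enzymes of the CYP4 family sit in the endoplasmic reticulum and hydroxylate fatty acids at or near the end of the chain that lies opposite the carboxyl group, a reaction called omega-hydroxylation. Alcohol and aldehyde dehydrogenases turn the products into dicarboxylic acids, which peroxisomes shorten by beta-oxidation. In rodent liver, Cyp4a10 and Cyp4a14 are textbook targets of PPAR alpha, the nuclear receptor that senses fatty acids, while Cyp4a12a is a male-biased gene whose enzyme hydroxylates arachidonic acid. Enzymes of the CYP4F branch hydroxylate leukotrienes and other eicosanoids. RBPJ is the DNA-binding protein through which Notch receptors act on their target genes.

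All arrays were on 1 slide, with the Rbpj +/+ arrays in the first row and the Rbpj -/- arrays in the second, so row and genotype cannot be told apart. Between 41.1% and 64.9% of the probes were well above background on an array, and no spot was saturated. Dim probes were brighter on Rbpj +/+ replicate 2 and Rbpj -/- replicate 1, where the median intensity was 18.7 and 29.6, against 4.99 to 7.75 on the other arrays. Levels are given as log2 intensity relative to the 75th percentile of the same array. A level of 0 is therefore the 75th percentile of the array, and levels of different probes were not set against each other. Genotypes were compared with limma over all 24547 probes that were well above background on every array of at least 1 genotype, with Benjamini-Hochberg adjustment over them and a threshold of 0.1. Where a gene had several tested probes, its brightest one stood for it. By this rule 19.6% of the 18770 tested genes were lower and 14.6% were higher in Rbpj -/- liver, and the median log2 fold change over all of them was -0.13. In whole tissue, fewer cells of a type and less RNA per cell cannot be told apart.

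The targeted gene was examined first. The level of Rbpj was 0.97, 0.29, 0.33 and 0.81 in the 4 Rbpj +/+ livers and -0.35, -0.78 and -0.48 in the 3 Rbpj -/- livers, at its brighter probe (mm9 chr5:54048503-54048562). The groups did not overlap, and Rbpj was lower in every Rbpj -/- liver, by a log2 fold change of -1.13 (SE 0.24, limma adjusted p = 0.0115). The second probe with this name lies on another chromosome (chr6:46479373-46479432) and its groups overlapped (log2 fold change -1.63, SE 0.58, limma adjusted p = 0.0723). Neither probe is known here to lie in the deleted part of the gene.

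The probes of Cyp4a10 and Cyp4a31 were compared base by base, because neighbouring Cyp4a genes are alike enough to share signal. The following probes start at bases 1193 and 1181 of their transcripts and were matched over their whole length of 60 bases, with the bases that differ in capitals.
Cyp4a10: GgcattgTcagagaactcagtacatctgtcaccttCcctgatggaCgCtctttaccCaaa
Cyp4a31: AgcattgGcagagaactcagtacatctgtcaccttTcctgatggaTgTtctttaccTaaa
The pair is identical at 54 of 60 positions, and the changes from the Cyp4a10 to the Cyp4a31 probe, counted from 1 at the 5′ end, are G1A, T8G, C36T, C46T, C48T and C57T. Another pair of probes of the same genes shares 44 of 47 overlapping bases (93.6%). The array's design lists the shown Cyp4a10 probe also for Cyp4a32, 1 probe of Cyp4a31 also for Cyp4a10, and the probe of Cyp4a12a also for Cyp4a12b. Values within these sets of genes are therefore uncertain in their assignment and are not independent of each other.

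On the coordinates of the array's design (mm9), the Cyp4a and Cyp4b1 probes lie side by side on chromosome 4, Cyp4f14 and Cyp4f15 lie on chromosome 17 and Cyp4v3 on chromosome 8. Along chromosome 4 the order is Cyp4a12a (chr4:115005258-115005317), Cyp4a12b (chr4:115111580-115111639), Cyp4a14 (chr4:115158914-115158973), Cyp4a10 (chr4:115206150-115206209), Cyp4a31 (chr4:115251553-115251612), Cyp4a32 (chr4:115294852-115294911) and Cyp4b1 (chr4:115297406-115297465). The probes of Cyp4a12b and Cyp4a14 are separated by 47274 bases and those of Cyp4a32 and Cyp4b1 by 2494 bases.

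Of the 10 genes, 7 were lower in Rbpj -/- liver, against 19.6% of all tested genes, none was higher, and Cyp4a14, Cyp4b1 and Cyp4f15 did not pass the test. The same 7 genes, and no other member, had an unadjusted limma p under 0.05. The median log2 fold change of the 10 genes was -2.39. Of the 14 probes, all of which were tested, 10 were lower. The 7 genes did not behave alike: Cyp4a12a, Cyp4a12b, Cyp4f14 and Cyp4v3 were lower in each of the 3 Rbpj -/- livers than in any Rbpj +/+ liver, a pattern held by 21.2% of all tested genes, while Cyp4a10, Cyp4a31 and Cyp4a32 were low only in Rbpj -/- replicates 1 and 2. Without Rbpj -/- replicate 3, 8 of the 10 genes were lower, against 15.5% of the 19415 genes tested then. The median log2 fold change of the 10 genes was then -3.53. Replicate 3 is the liver in which some of these genes were not low, so values without it are no independent evidence. The count rests on single livers, as it was 4 without Rbpj +/+ replicate 3, 4 without Rbpj -/- replicate 1 and 3 without Rbpj -/- replicate 2.

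**Figure D1:**
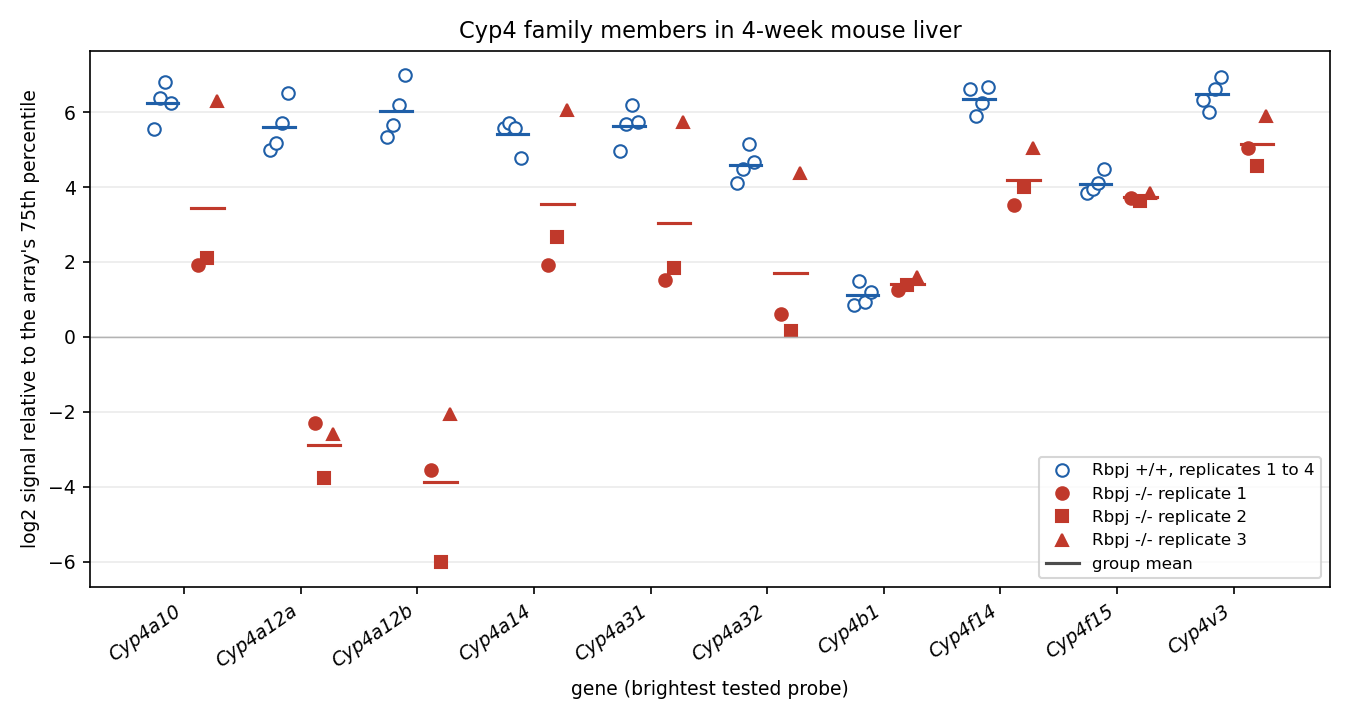
Level of each of the 10 genes (y axis, log2 intensity relative to the 75th percentile of the array, brightest tested probe) in every liver, with open circles for the 4 Rbpj +/+ livers, a filled symbol for each of the 3 Rbpj -/- livers and a bar for the group mean. Cyp4a12a and Cyp4a12b are low in all 3 Rbpj -/- livers, while Cyp4a10, Cyp4a14, Cyp4a31 and Cyp4a32 are low in replicates 1 and 2 and at the level of Rbpj +/+ in replicate 3.

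The largest differences among the members were those of Cyp4a12a and Cyp4a12b. Cyp4a12a, the arachidonic acid hydroxylase, had levels of 5.0, 5.19, 5.71 and 6.51 in Rbpj +/+ liver and of -2.30, -3.77 and -2.60 in Rbpj -/- liver. The lowest Rbpj +/+ liver thus lay far above the highest Rbpj -/- liver. The log2 fold change was -8.50 (SE 0.44, limma adjusted p = 5.97e-05), a 361-fold lower signal. Its close homologue Cyp4a12b had levels of 5.35, 5.65, 6.18 and 6.99 in Rbpj +/+ liver and of -3.56, -6.02 and -2.07 in Rbpj -/- liver. The groups did not overlap here either, and the log2 fold change was -9.93 (SE 0.81, limma adjusted p = 0.000301). The Cyp4a12b probe was well above background in only 1 of the 3 Rbpj -/- livers, so that the size of its fall rests on signals near background. With normexp background correction the log2 fold changes were -6.12 for Cyp4a12a and -6.53 for Cyp4a12b, in place of -8.50 and -9.93. The sizes of both falls, the 361-fold value included, thus depend strongly on the background correction. Both genes passed the test under every alternative that could give a value.

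Cyp4a10, a hydroxylase of medium- and long-chain fatty acids, had levels of 5.55, 6.39, 6.81 and 6.25 in Rbpj +/+ liver and of 1.92, 2.12 and 6.29 in Rbpj -/- liver. The first and second Rbpj -/- livers were below every Rbpj +/+ liver, and replicate 3 was inside the range of the Rbpj +/+ livers. The log2 fold change was -2.81 (SE 0.94, limma adjusted p = 0.0602), and without Rbpj -/- replicate 3 it was -4.23 (SE 0.35, limma adjusted p = 0.000963). The smaller SE and limma p go with leaving out the liver that differed from the other Rbpj -/- livers. The other probes of the gene gave -2.83 (limma adjusted p = 0.0515) and -2.36 (limma adjusted p = 0.0852).

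Cyp4a14 encodes a fatty acid hydroxylase that belongs with Cyp4a10 to the textbook PPAR alpha targets. Its levels were 5.59, 5.70, 5.58 and 4.79 in Rbpj +/+ liver and 1.93, 2.68 and 6.07 in Rbpj -/- liver. Replicate 3 of Rbpj -/- was the highest of all 7 livers, and the other Rbpj -/- livers were the lowest. With all livers the gene did not pass the test (log2 fold change -1.86, 95% confidence interval -3.76 to 0.04, limma adjusted p = 0.138). Without Rbpj -/- replicate 3 it did (-3.11, SE 0.35, limma adjusted p = 0.00266). Without replicate 1 or replicate 2 it did not (-1.04 and -1.42, limma adjusted p = 0.402 and 0.36). Replicate 3 was the liver that differed from the other Rbpj -/- livers, so the pass without it is no independent evidence.

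Cyp4a31, a close homologue of Cyp4a10, had levels of 4.96, 5.69, 6.19 and 5.73 in Rbpj +/+ liver and of 1.53, 1.85 and 5.73 in Rbpj -/- liver at its brightest probe. The split between the Rbpj -/- livers was that of Cyp4a10. The log2 fold change was -2.61 (SE 0.89, limma adjusted p = 0.0644). Its other probes gave -2.93 (limma adjusted p = 0.0451) and -2.0 (limma adjusted p = 0.115), the latter at the probe also listed for Cyp4a10. Cyp4a32, at the end of the cluster, had levels of 4.10, 4.49, 5.15 and 4.66 in Rbpj +/+ liver and of 0.62, 0.16 and 4.37 in Rbpj -/- liver. Replicate 3 again lay within the Rbpj +/+ range (log2 fold change -2.88, SE 0.87, limma adjusted p = 0.0441). The calls of Cyp4a10 and Cyp4a31 were lost without Rbpj +/+ replicate 2, 3 or 4 or without Rbpj -/- replicate 1 or 2, and that of Cyp4a32 without Rbpj +/+ replicate 3 or Rbpj -/- replicate 1 or 2. Under the stricter threshold of 0.05, quantile normalization, the series matrix or no filter on dim probes, Cyp4a10 and Cyp4a31 did not pass.

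Over the 8 probes of these 4 genes (Cyp4a10, Cyp4a14, Cyp4a31 and Cyp4a32), the level differed from the Rbpj +/+ mean by -4.33 to -3.28 in Rbpj -/- replicate 1, by -4.44 to -2.74 in replicate 2 and by -0.23 to 0.66 in replicate 3. All 8 probes were below every Rbpj +/+ liver in replicates 1 and 2, and none was in replicate 3. Because some of these probes are listed for more than 1 of the genes or differ in few bases, they do not amount to 8 separate observations. The pattern in which only replicate 3 is not below every Rbpj +/+ liver was counted after these values had been seen: it was held by 5 of the 10 members (Cyp4f15 being the fifth) and by 6.61% of all tested genes. Cyp4f15 held it by a small margin, with 3.84 in replicate 3 and 3.83 in the lowest Rbpj +/+ liver. The same pattern with replicate 1 or replicate 2 as the exception was held by no member, and by 4.7% and 3.77% of all tested genes.

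**Figure D2:**
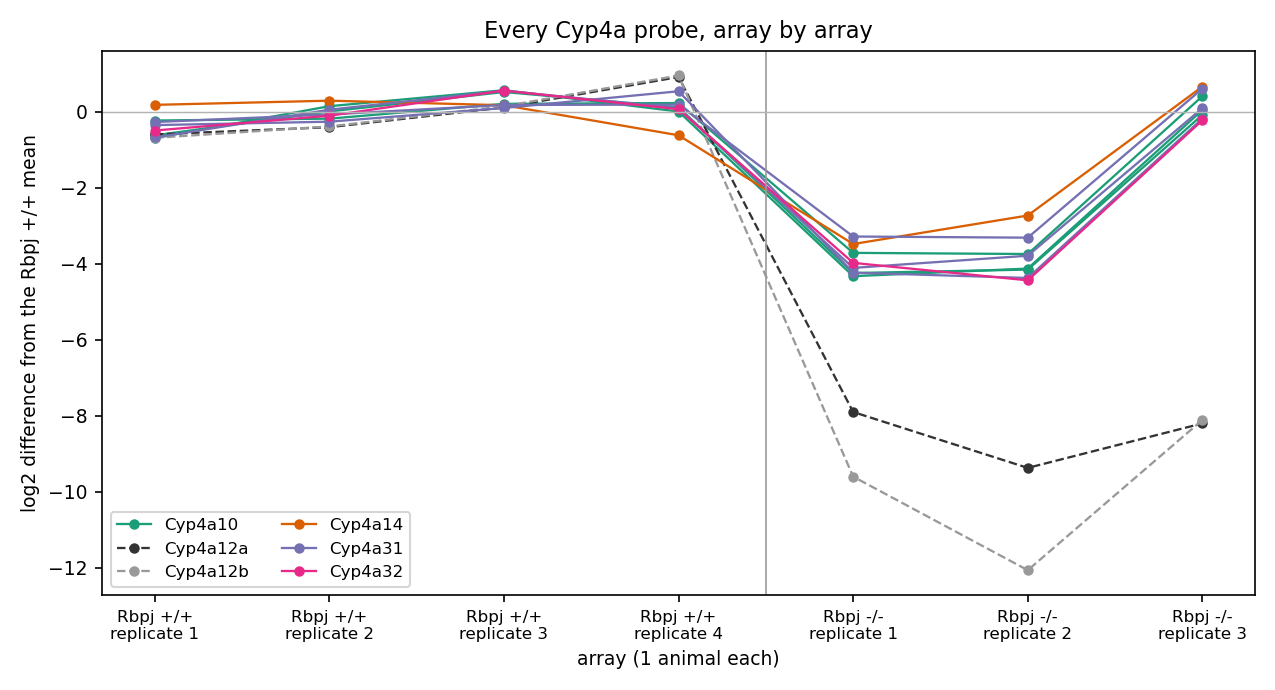
Difference of each Cyp4a probe from its own Rbpj +/+ mean (y axis, log2) in each of the 7 livers (x axis), with 1 line per probe, coloured by gene and dashed for Cyp4a12a and Cyp4a12b. The solid lines lie well below 0 in Rbpj -/- replicates 1 and 2 and at about 0 in replicate 3, where the dashed lines are below -8.

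Whether the genotype difference itself differed between Cyp4a12a and Cyp4a14 was tested on the difference of their levels within each liver. Cyp4a12a minus Cyp4a14 was -0.59, -0.51, 0.13 and 1.72 in the Rbpj +/+ livers and -4.23, -6.45 and -8.67 in the Rbpj -/- livers. The fall of Cyp4a12a was larger than that of Cyp4a14 by 6.64 on the log2 scale, as the difference between the genotypes was -6.64 (exact two-sided permutation p = 0.0286, the smallest that the 35 assignments of 7 animals allow). The direction was the same in 3 of 3 Rbpj -/- livers. With normexp background correction the difference was -4.63, with the same p of 0.0286 in the exact permutation test. The size of the difference thus depends on the background correction. The members were chosen with earlier results of these data known, so this p is no independent evidence.

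Other measures were read in Rbpj -/- replicate 3 beside the Cyp4a genes. At the brighter probe, its level of Rbpj lay between those of the other Rbpj -/- livers. At the second probe it was the lowest (-2.22, -3.53 and -4.51 in replicates 1, 2 and 3). The median over 14 hepatocyte markers differed from the Rbpj +/+ mean by -0.76, -0.68 and -0.60 in Rbpj -/- replicates 1, 2 and 3, that over 17 male-biased liver genes by -3.06, -2.97 and -2.72, and that over 9 macrophage markers by 1.51, 1.47 and 1.39. Replicate 3 lay further from the other Rbpj -/- livers over 13 tested female-biased liver genes (1.07, 1.22 and 1.79 in replicates 1, 2 and 3). The labels give the same genotype and age for all 3 Rbpj -/- mice, but their sample titles differ in form. Replicates 1 and 2 are named by the letter N and a number, and replicate 3 by a number alone, like the Rbpj +/+ mice. What this naming stands for is not given, and its relation to the Cyp4a levels was not tested.

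Cyp4f14, which encodes a leukotriene hydroxylase, had levels of 6.62, 5.91, 6.24 and 6.68 in Rbpj +/+ liver and of 3.52, 4.01 and 5.04 in Rbpj -/- liver. All 3 Rbpj -/- livers were below all Rbpj +/+ livers, with replicate 3 the highest of the 3. The log2 fold change was -2.17 (SE 0.36, limma adjusted p = 0.00494), a 4.51-fold lower signal, and the gene passed the test under all 18 alternatives. Cyp4v3, the mouse counterpart of the gene mutated in Bietti crystalline dystrophy of the human retina, had levels of 6.33, 6.01, 6.63 and 6.95 in Rbpj +/+ liver and of 5.04, 4.55 and 5.89 in Rbpj -/- liver. The groups came close but did not overlap (log2 fold change -1.32, SE 0.34, limma adjusted p = 0.0265). Without Rbpj -/- replicate 2, Cyp4v3 did not pass the test (-1.01, limma adjusted p = 0.104).

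Cyp4f15 and Cyp4b1 did not pass the test. Cyp4f15, which also belongs to the CYP4F branch, had levels of 3.83, 3.94, 4.11 and 4.48 in Rbpj +/+ liver and of 3.70, 3.64 and 3.84 in Rbpj -/- liver. The groups touched at their edges, and the log2 fold change of -0.36 had a 95% confidence interval from -0.83 to 0.11 (limma adjusted p = 0.232). Cyp4b1, known best from lung, where its enzyme activates foreign compounds, had levels of 0.85, 1.48, 0.94 and 1.20 in Rbpj +/+ liver and of 1.24, 1.38 and 1.60 in Rbpj -/- liver. The livers of both groups overlapped (log2 fold change 0.29, 95% confidence interval -0.20 to 0.78, limma adjusted p = 0.349). Whether Cyp4b1 differed in this from Cyp4a32, its neighbour on the chromosome, was not tested.

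**Figure D3:**
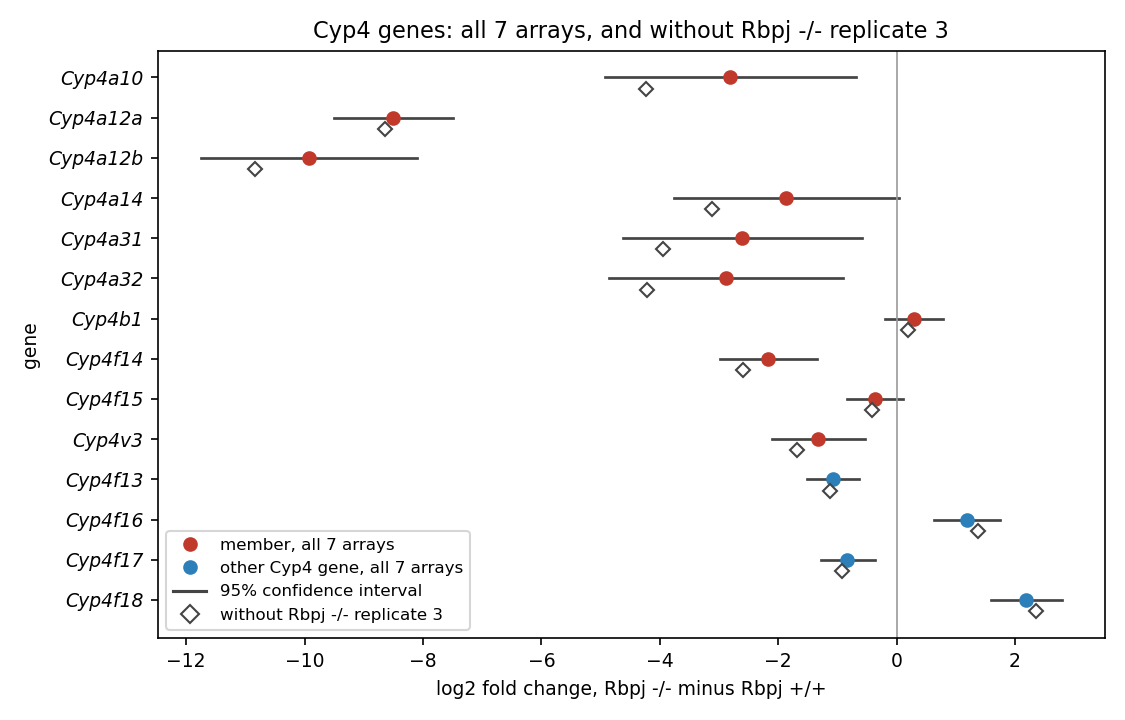
Log2 fold change (x axis, Rbpj -/- minus Rbpj +/+) of the 10 members and of the 4 other tested Cyp4 genes, with 95% confidence intervals from limma over all 7 livers and, as open diamonds, the value without Rbpj -/- replicate 3. The intervals of Cyp4a10, Cyp4a14, Cyp4a31 and Cyp4a32 are wide and their diamonds lie further left, and Cyp4f16 and Cyp4f18 lie right of 0.

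The array holds 12 other Cyp4 genes, of which 4 were tested. All 4 passed the test, 2 in each direction, against 19.6% lower and 14.6% higher of all tested genes. Cyp4f13 was lower, with levels of 3.27, 2.88, 3.28 and 3.33 against 1.93, 2.20 and 2.21 (log2 fold change -1.08, SE 0.20, limma adjusted p = 0.00698). Cyp4f17 was lower by a smaller amount (-0.83, SE 0.20, limma adjusted p = 0.0205). Cyp4f18, the leukotriene hydroxylase known from neutrophils and other myeloid cells, was higher, with levels of -0.55, -0.36, -1.08 and -0.23 in Rbpj +/+ liver and of 2.02, 1.58 and 1.31 in Rbpj -/- liver. No liver of one group reached the other group in any of these genes. Of all tested genes, 21.2% had every Rbpj -/- liver below every Rbpj +/+ liver, and the share with every one above was not counted. The log2 fold change of Cyp4f18 was 2.19 (SE 0.27, limma adjusted p = 0.00149), and its second probe gave 1.46 (limma adjusted p = 0.00832). Cyp4f16 was also higher (1.19, SE 0.24, limma adjusted p = 0.0109). Cyp4a29, Cyp4a30b, Cyp4b1-ps2, Cyp4f37, Cyp4f39, Cyp4f40, Cyp4f41-ps and Cyp4x1 were not tested, as each was well above background on at most 2 Rbpj +/+ arrays and 1 Rbpj -/- array. Markers of other cell types moved with the genotype as well: 7 of 9 macrophage markers were higher (Marco by 2.93 and Lyz2 by 2.85, log2) and 1 was lower (Itgam, -1.54, named after its value was seen), 3 of 9 neutrophil markers were higher and 2 lower (Retnlg higher by 3.47, S100a8 by 2.62), and 11 of 14 hepatocyte markers were lower (Cyp2e1, log2 fold change -1.20, and Apob, -0.97). The summed signal, relative to the 75th percentile on a linear scale, ranged from 122 to 156 in Rbpj +/+ and from 389 to 495 in Rbpj -/- liver for the 9 macrophage markers, from 190 to 280 and from 164 to 200 for the 9 neutrophil markers, and from 8302 to 11710 and from 5549 to 6562 for the 14 hepatocyte markers. The neutrophil sum is set by 1 gene, Csf3r (log2 fold change -0.76, limma adjusted p = 0.0564), named after its value was seen, and over the other 8 markers it ranged from 6.28 to 25.1 in Rbpj +/+ and from 33.8 to 71.4 in Rbpj -/- liver. The array's design places the Csf3r probe at mm9 chr19:60157892-60157951, and whether its signal comes from this gene or from neutrophils was not tested. Of the tested markers of other cells, 3 of 7 were higher for cholangiocytes, 6 of 9 for stellate cells and 4 of 8 for endothelial cells, where 1 was lower, while 6 of 9 lymphocyte and 2 of 7 erythroid markers were lower. These counts stand against 19.6% lower and 14.6% higher of all tested genes. The part of these cell types in the Cyp4 values was not tested.

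PPAR alpha targets outside the Cyp4 family were read next, over a list of 38 genes of which 37 were tested. Of these, 15 were lower and 3 higher in Rbpj -/- liver, against 19.6% lower and 14.6% higher of all tested genes. Their median log2 fold change was -0.53. The median over the 37 genes differed from the Rbpj +/+ mean by -0.79 in Rbpj -/- replicate 1, by -0.78 in replicate 2 and by -0.14 in replicate 3. Without Rbpj -/- replicate 3, 20 genes were lower, against 15.5% of all genes tested then, and 2 were higher. Without Rbpj -/- replicate 2 the count of lower genes was 8. For these counts of 2 and 8, the shares over all genes are not given here. By its median the list thus put the Rbpj -/- livers in the order seen for Cyp4a10 and Cyp4a14, with smaller differences. This order was not particular to PPAR alpha targets. Over 11 epoxygenases and epoxide hydrolases the median differences in replicates 1, 2 and 3 were -2.18, -1.19 and -0.78. Over 27 genes for the steps after omega-hydroxylation, some also on this list, they were -0.76, -0.71 and -0.24. Over 13 tested female-biased liver genes, replicate 3 differed most (1.07, 1.22 and 1.79). Fgf21, a hormone made by the fasted liver, had levels of 5.54, 3.64, 0.51 and -0.22 in Rbpj +/+ liver and of -3.24, -2.85 and -2.44 in Rbpj -/- liver. Its Rbpj +/+ livers were spread widely, but all lay above the Rbpj -/- livers (log2 fold change -5.21, SE 1.22, limma adjusted p = 0.0177). Cd36, a fatty acid transporter, rose from levels of 0.02, -0.12, 0.11 and 0.11 to 3.30, 3.28 and 3.70 (3.40, SE 0.19, limma adjusted p = 5.97e-05). The other genes of the list that were higher, named after their values were seen, were Cidec (1.31) and Acot2 (1.27), a lipid droplet protein and an acyl-CoA thioesterase.

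**Figure D4:**
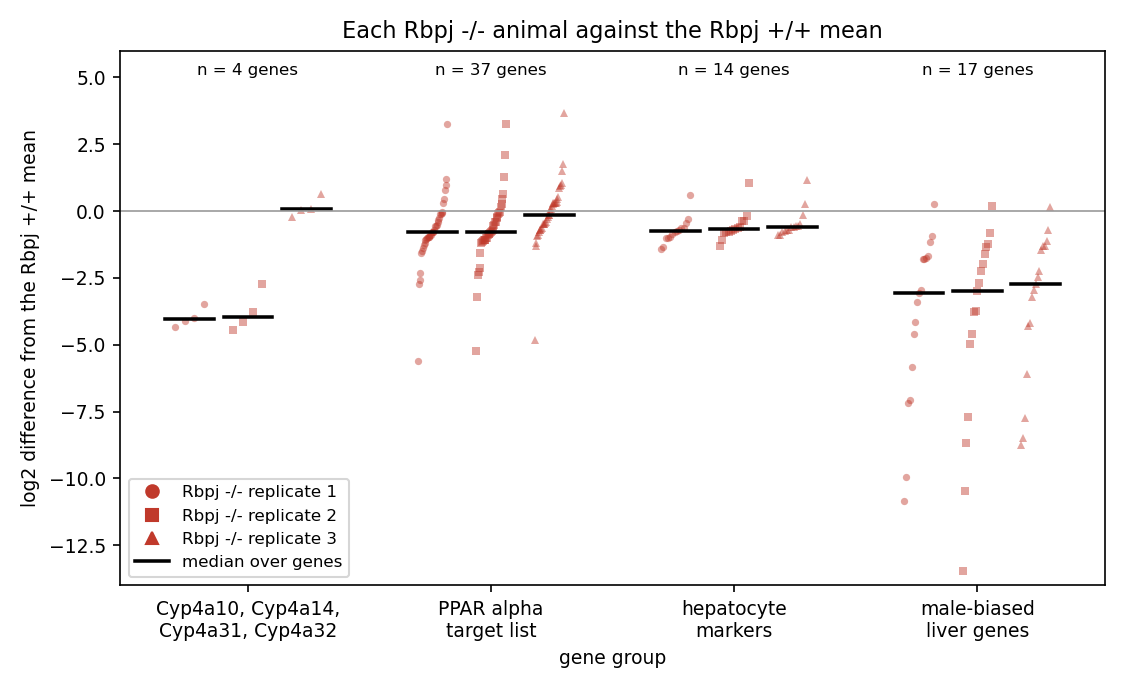
Difference of each Rbpj -/- liver from the Rbpj +/+ mean (y axis, log2), with 1 point per gene and a bar for the median, for the 4 Cyp4a genes other than Cyp4a12a and Cyp4a12b, 37 PPAR alpha targets, 14 hepatocyte markers and 17 male-biased liver genes. In replicate 3 the medians of the first and second groups are 0.06 and -0.14, while those of the other groups (-0.60 and -2.72) lie near the values of replicates 1 and 2.

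Of 19 regulators of Cyp4 genes, 8 were lower and 1 was higher, against 19.6% lower and 14.6% higher of all tested genes. Ppara itself had levels of 6.33, 6.22, 5.52 and 6.13 in Rbpj +/+ liver and of 4.22, 4.67 and 5.08 in Rbpj -/- liver. It was lower in all 3 Rbpj -/- livers (log2 fold change -1.40, SE 0.28, limma adjusted p = 0.00962), with replicate 3 the highest of the 3. Cyp4a10 and Cyp4a14 were at the Rbpj +/+ level in replicate 3, and the relation of their levels to Ppara was not tested. The largest differences in this list were those of Med1, a coactivator subunit of the Mediator complex (-2.92, limma adjusted p = 0.000411), and Nr1h4, the bile acid receptor (-1.52, limma adjusted p = 0.00321). The 1 higher regulator, named after its value was seen, was Pparg (1.38, limma adjusted p = 0.0177).

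Partners of the enzymes and related genes were read as well. Por, the reductase that passes electrons to microsomal P450 enzymes, was higher in Rbpj -/- liver, with levels of 6.27, 6.10, 6.53 and 6.11 against 7.12, 7.25 and 6.80 (log2 fold change 0.81, SE 0.20, limma adjusted p = 0.0232). The groups did not overlap. Of the 7 genes listed as electron donors or haem-related genes, 2 were higher and 1 was lower, against 14.6% higher and 19.6% lower of all tested genes. The higher genes were Por and the haem oxygenase Hmox1 (1.39, limma adjusted p = 0.00453), which is no electron donor. The lower gene was Cyb5a (-0.58, limma adjusted p = 0.0546), named after its value was seen. Of 27 genes for the steps after omega-hydroxylation, 10 were lower and 2 higher, against the same shares of all tested genes. The largest differences were those of Acsl1, which activates fatty acids with coenzyme A (-2.10, limma adjusted p = 0.00602), and of the alcohol dehydrogenase Adh4 (-1.86, limma adjusted p = 0.00773). Their levels in Rbpj -/- replicate 3, 7.09 and 5.42, were above those of the other Rbpj -/- livers and below all Rbpj +/+ livers.

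Arachidonic acid is also used by other enzymes. Of 11 epoxygenases and epoxide hydrolases, 8 were lower and none higher at the threshold, with 8 below an unadjusted p of 0.05 by limma in all. Over all tested genes, 19.6% were lower and 14.6% higher. Cyp2j5 (-2.49, limma adjusted p = 0.00404) and Cyp2j9 (-2.07, limma adjusted p = 0.00128) had the largest differences. Of 12 tested genes of leukotriene and prostaglandin synthesis, 6 were higher and 1 lower, against the same shares of all tested genes. Alox5ap, which presents arachidonic acid to the lipoxygenase of leukocytes, was higher by 1.68 on the log2 scale (limma adjusted p = 0.00129), and the thromboxane synthase Tbxas1 by 1.68 as well (limma adjusted p = 0.00247). Macrophage markers were higher in the same livers, as given above, and their part in these values was not tested.

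Other sex-biased liver genes were read beside Cyp4a12a. Of 17 tested male-biased genes, Cyp4a12a not among them, 16 were lower in Rbpj -/- liver, with a median log2 fold change of -3.22, and 7 of the 13 female-biased genes tested were higher. Over all tested genes, 19.6% were lower and 14.6% higher. The largest fitted differences were those of the steroid dehydrogenase Hsd3b5 (-10.94) and the elongase Elovl3 (-9.73) on the male-biased list and of the sulfotransferases Sult2a1 (9.77) and Sult2a2 (9.61) on the female-biased list. Their size and order rest on signals near background, as Hsd3b5 was well above background in 1 and Elovl3 in 0 of the 3 Rbpj -/- livers, and Sult2a1 and Sult2a2 in 2 of the 4 Rbpj +/+ livers each. Against the lowest signal well above background on each Rbpj -/- array, Elovl3 was at least 294-fold lower. The lists were drawn up when these results were known and are no independent evidence. The Y-linked genes Ddx3y and Eif2s3y were expressed in all 7 livers, at levels of 2.11 to 2.76 and 2.32 to 2.84 in Rbpj +/+ liver and of 2.47 to 2.82 and 2.20 to 2.82 in Rbpj -/- liver. Their groups overlapped (log2 fold changes 0.07 and -0.18), as did those of Uty (-0.13). Xist and Kdm5d were too dim in both genotypes to be tested.

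The genes whose pattern over the 7 livers was most like that of a member were found by the root mean square difference of levels centred on each gene's mean. For Cyp4a12a these were Slco1a1 (0.48 on the log2 scale), an organic anion transporter, a transcript named ENSMUST00000121741 (0.69, well above background in 0 of the 3 Rbpj -/- livers) and Mup21 (0.89), a major urinary protein. Slco1a1 had levels of 4.62, 3.92, 4.41 and 4.83 in Rbpj +/+ liver and of -2.75, -4.24 and -3.28 in Rbpj -/- liver. For Cyp4a14 they were D630024D03Rik (0.57), Lrit1 (0.59) and 6430573F11Rik (0.66). Lrit1 had levels of 1.92, 1.88, 1.77 and 1.85 in Rbpj +/+ liver and of -1.46, -1.51 and 1.12 in Rbpj -/- liver, and so had a high replicate 3 as well. For Cyp4f14 they were Mbl2 (0.17), a mannose-binding lectin, Srd5a1 (0.18), a steroid reductase, and Slc22a28 (0.19), a transporter. Mbl2 had levels of 8.28, 7.89, 8.01 and 8.13 in Rbpj +/+ liver and of 5.26, 5.91 and 6.98 in Rbpj -/- liver. In both Mbl2 and Cyp4f14, replicate 3 was the highest of the Rbpj -/- livers and lay below the Rbpj +/+ range.

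Promoter sequences (RefSeq, GRCm38.p6, 300 bases around the start of a transcript) were at hand for 5 members, Cyp4a32, Cyp4b1, Cyp4f14, Cyp4f15 and Cyp4v3. They were searched on both strands for TGGGAA, the core to which RBPJ binds, for TTCNNNGAA, the core bound by STAT factors, and for a direct repeat of AGGTCA with 1 free base between the copies and at most 2 mismatches, the form bound by PPAR alpha with its partner. A gene can have several promoter entries, and the 5 members have 8 in all, 4 of them of Cyp4f14. TGGGAA was present in at least 1 entry of 3 of the 5 members and of 28.3% of the 27025 genes with an entry, TTCNNNGAA of 1 of 5 (Cyp4b1) and of 9.6%, and the repeat of none of 5 and of 4.4%. Over the 32851 single promoters the shares were 25.6%, 8.3% and 3.9%. Cyp4f14, the member with a promoter at hand that passed the test under all alternatives, is shown for the 250 bases before its most upstream start (chr17:32917357-32917606, minus strand), with both matches of TGGGAA in capitals, the second on the opposite strand.
Cyp4f14: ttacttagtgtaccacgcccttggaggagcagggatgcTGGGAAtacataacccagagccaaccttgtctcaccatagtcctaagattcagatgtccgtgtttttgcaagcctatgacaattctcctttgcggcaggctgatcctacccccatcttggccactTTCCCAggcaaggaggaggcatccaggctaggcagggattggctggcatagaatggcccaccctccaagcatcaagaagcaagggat
A match is a description of these letters and not a site of binding, and the letters of this build were not compared with the mm9 coordinates of the probes.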

How the data were processed

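Whole liver RNA of 4 Rbpj +/+ and 3 Rbpj -/- mice was measured on arrays of 1 dye. As deposited, the intensity values are background-subtracted spot signals that the authors obtained with Agilent Feature Extraction 10.7.3.1, not normalized between arrays. A series matrix of log2 values was made by the authors too. Its values follow quantile-normalized log2 intensities centred on each probe (r = 1 on every array), although the methods name a percentile shift, and the matrix served as an alternative.

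Spots of control probes or with marks of non-uniformity or population outliers were dropped, the remaining spots of a probe were averaged as log2 values, and every array was shifted by its 75th percentile. The genotype comparison used limma (version 3.58.1, R version 4.3.3), which stands in for the shrinkage t of the methods at their threshold of 0.1. The difference between Cyp4a12a and Cyp4a14 was compared by an exact permutation test over animals. The steps were tested on simulated data, and tables were made with Python 3.11.15. The number of arrays limits the precision. Each array is 1 animal.

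The text names all members and other Cyp4 genes, Rbpj, Ppara, Por, sex-linked genes, the 2 largest differences of each list (not every one of the cell type lists is printed) and the 3 genes most like Cyp4a12a, Cyp4a14 and Cyp4f14. The lists cover PPAR alpha targets, steps after omega-hydroxylation, electron donors and haem-related genes, epoxygenases, and leukotriene and prostaglandin synthesis. They also cover regulators, sex-biased and sex-linked genes and markers of 8 cell types. The members and lists were chosen with earlier results of these data known. The coordinates of probes come from the array design (mm9). Promoters are from RefSeq (GRCm38.p6), and no genome was used here.

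Alternatives were detection on all 7 arrays, no filter on dim probes, outlier spots kept, the percentile over detected probes, quantile normalization, normexp correction (offset 50), array weights, limma-trend, the series matrix, a stricter threshold (0.05), averaging the probes of a gene, and leaving out each animal. A single gene of the lists is not reported here.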

Additional observations from a re-analysis of the deposited data

Results flagged for a closer look

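In 4 of 62 genes read, 1 Rbpj +/+ liver lay far from the other Rbpj +/+ livers by Dixon's criterion for 4 values, which chance meets in about 1 of 20 groups. Cyp4a14 was 4.79 in Rbpj +/+ replicate 4 and 5.58 to 5.70 in the others. Cyp4f13 was 2.88 in Rbpj +/+ replicate 2 and 3.27 to 3.33 in the others. Xist was -2.95 in Rbpj +/+ replicate 1 and -5.36 to -5.08 in the others. Ms4a1, a B cell marker, was -0.54 in Rbpj +/+ replicate 4 and -1.67 to -1.49 in the others.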

How the results depend on the processing

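No result recomputed here changed direction under any of the 18 alternatives that could be run for it. Cyp4a12a, Cyp4a12b, Cyp4f14 and Ppara passed the test under all of them. The count of members that were lower was 7, ranged from 3 to 8 when 1 animal was left out, and was 3 without the filter on dim probes, where more probes are tested. The count of members that were higher was 1 with normexp correction (Cyp4b1, limma adjusted p = 0.0836, range over the alternatives 0.0836 to 0.64) and 0 otherwise. Without the filter, the counts of other Cyp4 genes were 1 lower and 1 higher, those of PPAR alpha targets 4 lower and 1 higher, and Rbpj did not pass (log2 fold change -1.13, limma adjusted p = 0.108, range 0.00456 to 0.108). With 1 animal left out, the count of lower PPAR alpha targets ranged from 8 to 20. The Cyp4a12a minus Cyp4a14 difference was -4.63 with normexp correction (permutation p = 0.0286), ranged from -7.75 to -5.53 with 1 animal left out, and its permutation p could not pass 0.05 with 6 animals (0.0667 without an Rbpj -/- animal and 0.1 without an Rbpj +/+ animal are the smallest values). Cyp4a10 and Cyp4a31 each lost their call under 9 of 18 alternatives, Cyp4a32 under 4 and Cyp4v3 under 2, while Cyp4a14 gained one under 3. The cause of these moves was not tested, except that fewer animals were compared. Signal over background limits, among others, the values of Cyp4a12b, Hsd3b5, Elovl3, Fgf21, Slco1a1, D630024D03Rik and ENSMUST00000121741 in Rbpj -/- liver, of Sult2a1, Sult2a2 and Retnlg in Rbpj +/+ liver, and of the 8 other Cyp4 genes that were not tested.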
